A study of Mus musculus with 29 samples.

Results

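The genes described here are 9 grouped as splicing regulators, though for Leng8 and Zfp692 such a role was not examined. The 9 are the SR protein kinases Clk1, Clk2 and Clk4, the SR proteins Srsf2, Srsf5 and Srsf7, the O-GlcNAc transferase gene Ogt, and Leng8 and Zfp692. They were taken by symbol from the 48709 gene identifiers of the RNA count files, and all 9 were among the 20078 genes kept by the filter on low counts. Leng8 and Zfp692 were chosen because their RNA fell under TSA in these same libraries, so their TSA values are a description with no test. The label under which the genes were grouped refers to transcripts with detained introns, and counts per gene cannot tell an intron-retaining transcript from a spliced one, so that property was not measured.

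The libraries come from cortex of mouse embryos at E16.5 that received trichostatin A (TSA), an inhibitor of histone deacetylases, or its vehicle. Nuclei were sorted by the transcription factor Tbr2, the product of Eomes, into Tbr2-positive and Tbr2-negative fractions. RNA-seq covered Tbr2-positive nuclei with TSA (2 libraries), Tbr2-positive nuclei with vehicle (3), Tbr2-negative nuclei with TSA (2) and Tbr2-negative nuclei with vehicle (3). ChIP-seq of histone H3 acetylated at lysine 9 (H3K9ac), a mark of active promoters, covered the same 4 groups with 4, 3, 4 and 4 libraries. The labels call all of them embryonic cortex and name no strain, genotype or transgene, and nothing states that libraries of a group came from separate embryos or litters. The p-values therefore measure the spread between these libraries, which may be technical. The series text speaks of sorted nuclei, while the extraction text of the labels mentions TRIZOL and whole tissue.

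An intron that stays in a finished, polyadenylated transcript while the rest is spliced is called detained, and such a transcript is kept in the nucleus until the intron is removed or the RNA is destroyed. Genes for splicing factors are rich in them. SR proteins bind exonic sequences and recruit the spliceosome, and CLK kinases phosphorylate them and so release them from nuclear speckles. In mouse and human cells a detained intron in Clk1 and Clk4 RNA is spliced when CLK activity falls, and one in Ogt RNA is spliced when protein O-GlcNAc is low, so nuclear RNA of these genes serves as a reserve.

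RNA depth was 18567111 to 26282652 counts per library. Eomes, the gene of the sorting marker, lay between 391 and 462 CPM (counts scaled to library size) in Tbr2-positive TSA nuclei and between 370.4 and 548 CPM in Tbr2-positive vehicle nuclei, against 8.23 to 14.1 CPM in Tbr2-negative TSA nuclei and 13.9 to 22.0 CPM in Tbr2-negative vehicle nuclei. All 8 basal progenitor markers were higher in Tbr2-positive nuclei under either treatment, and all 8 interneuron markers were lower. Among all genes 9.96% were higher and 11.5% lower in vehicle, and 4.19% higher and 5.13% lower with TSA (adjusted p below 0.05, edgeR). Radial glia markers were mixed: of 8, Pax6 and Vim were higher in vehicle, and with TSA Pax6 was higher and Sox2 lower. In vehicle, 4 of 8 excitatory neuron markers and 4 of 5 oligodendrocyte precursor markers were lower in Tbr2-positive nuclei, as were 11.5% of all genes. Microglial markers summed to 9.94 to 20.9 CPM in Tbr2-positive libraries and 27.8 to 56.5 CPM in Tbr2-negative ones, and erythroid genes to 282 to 699 CPM over all libraries. Sums of other cell type markers also lay apart between TSA and vehicle in Tbr2-negative nuclei, while few single markers passed an adjusted p of 0.05. There 0 of 6 vascular, 0 of 5 oligodendrocyte precursor, 1 of 8 radial glia and 2 of 8 interneuron markers passed. The share of all genes was 1.18% (edgeR). Vascular markers summed to 34.7 to 35.6 CPM with TSA and 44.8 to 60.4 CPM with vehicle, oligodendrocyte precursor markers to 65.5 to 66.3 CPM with TSA and 38.8 to 55.7 CPM with vehicle, and radial glia markers to 996 to 1047 CPM with TSA and 796 to 850.2 CPM with vehicle. In Tbr2-positive nuclei oligodendrocyte precursor markers summed to 18.3 to 20.2 CPM with TSA and 6.82 to 12.9 CPM with vehicle, and excitatory neuron markers to 6698 to 7207 CPM with TSA and 4841 to 6339 CPM with vehicle. Of these markers 0 of 5 and 0 of 8 passed there, as did 0.0% of all genes (edgeR). Interneuron markers summed to 1195 to 1283 CPM in Tbr2-negative TSA nuclei and to 652 to 756 CPM in Tbr2-negative vehicle nuclei.

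All 9 genes carried an H3K9ac peak at a gene end in every library, as did 71.6% of 16903 genes. RefSeq promoters (GRCm38.p6, 250 bases before to 50 after the annotated start) were found for 8 of the 9 genes, all but Clk1. Those of Clk4, Srsf5, Ogt, Leng8 and Zfp692 are printed because these genes had lower RNA in every TSA library than in any vehicle library of the same population. They are on the + strand, 5′ to 3′, in this order: chr11:51262864-51263163, chr12:80945249-80945548, chrX:101639801-101640100, chr7:4136806-4137105 and chr11:58306819-58307118. Capitals mark the motifs found.
Clk4: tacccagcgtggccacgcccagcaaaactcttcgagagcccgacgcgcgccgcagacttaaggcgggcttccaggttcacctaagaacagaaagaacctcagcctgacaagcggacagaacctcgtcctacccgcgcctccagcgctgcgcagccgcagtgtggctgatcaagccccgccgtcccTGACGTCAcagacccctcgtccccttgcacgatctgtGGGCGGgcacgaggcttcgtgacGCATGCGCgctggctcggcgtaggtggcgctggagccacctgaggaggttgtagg
Srsf5: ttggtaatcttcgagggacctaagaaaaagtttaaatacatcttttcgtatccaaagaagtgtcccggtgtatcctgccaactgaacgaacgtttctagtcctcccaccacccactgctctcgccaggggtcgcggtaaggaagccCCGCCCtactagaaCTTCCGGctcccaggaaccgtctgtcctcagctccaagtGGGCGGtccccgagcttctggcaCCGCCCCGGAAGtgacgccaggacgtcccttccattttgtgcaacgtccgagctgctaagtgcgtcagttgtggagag
Ogt: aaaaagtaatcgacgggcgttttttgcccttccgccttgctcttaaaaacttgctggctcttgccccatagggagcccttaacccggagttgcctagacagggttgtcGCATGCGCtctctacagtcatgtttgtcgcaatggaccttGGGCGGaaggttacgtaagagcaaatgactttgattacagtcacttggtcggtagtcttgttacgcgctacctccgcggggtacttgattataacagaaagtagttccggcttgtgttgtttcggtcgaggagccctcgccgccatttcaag
Leng8: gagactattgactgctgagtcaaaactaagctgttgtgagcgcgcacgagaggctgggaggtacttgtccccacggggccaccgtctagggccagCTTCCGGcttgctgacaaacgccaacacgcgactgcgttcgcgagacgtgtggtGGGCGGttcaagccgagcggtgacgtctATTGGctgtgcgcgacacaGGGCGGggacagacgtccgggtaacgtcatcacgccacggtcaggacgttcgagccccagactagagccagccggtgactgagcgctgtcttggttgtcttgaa
Zfp692: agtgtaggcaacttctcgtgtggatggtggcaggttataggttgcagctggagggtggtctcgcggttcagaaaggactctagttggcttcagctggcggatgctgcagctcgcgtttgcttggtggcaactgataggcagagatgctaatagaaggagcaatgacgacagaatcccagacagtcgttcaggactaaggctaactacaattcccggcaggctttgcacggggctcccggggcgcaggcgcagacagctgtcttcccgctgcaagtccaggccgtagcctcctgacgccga

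The search covered both strands for the GC box (GGGCGG, in 35.7% of 32851 mouse promoters of the same length), CCAAT (37.4%), the ETS motif CCGGAAG (8.86%), the cyclic AMP response element TGACGTCA (1.79%), the NRF1 motif GCATGCGC (2.71%), TATAAA (13.6%), the E-box CACGTG (7.15%) and the YY1 motif AAGATGGCG (1.4%). The Clk4 promoter held a GC box, the cyclic AMP response element and an NRF1 motif. That of Srsf5 held 3 GC boxes and 2 ETS motifs, and 1 motif of each kind overlap there. The Ogt promoter held a GC box and an NRF1 motif, and that of Leng8 held 2 GC boxes, a CCAAT box and an ETS motif. The table holds a second promoter for each of Ogt and Leng8, not printed here. That of Ogt (chrX:101639968-101640267) had 48.3% GC, a GC box and no NRF1 motif. The second one of Leng8 (chr7:4137230-4137529) had 71.7% GC, 1 GC box and 2 NRF1 motifs. None of the letters searched was present in the Zfp692 window. GC content of the printed windows was 65.3% for Clk4, 61.3% for Leng8, 57.7% for Zfp692, 56.0% for Srsf5 and 51.0% for Ogt, where the median promoter had 52.7%. The ratio of observed to expected CpG lay between 0.696 for Zfp692 and 1.04 for Leng8, above the median of 0.384, so the printed promoters all lay above the median in CpG. Promoters of Clk2, Srsf2 and Srsf7, not printed, had ratios of 0.986, 1.08 and 0.952. That of Clk2 held 1 GC box, 1 CCAAT box and 1 E-box, and that of Srsf2 5 GC boxes, 1 CCAAT box and 1 TATAAA. The Srsf7 promoter held 3 GC boxes, 1 ETS motif and 1 NRF1 motif. GC boxes, CCAAT boxes, ETS and NRF1 motifs and high CpG were thus not particular to the printed promoters.

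Over both populations together, TSA lowered the RNA of 4 of the 7 genes not chosen for their fall. The 7 were still chosen with earlier results of these data known, which limits any comparison with all genes. The kinase genes Clk1 and Clk4, the SR protein gene Srsf5 and Ogt fell. The kinase gene Clk2 and the SR protein genes Srsf2 and Srsf7 did not pass the test. For comparison, 10.8% of all 20078 genes passed an adjusted p of 0.05 in either direction in this contrast, 6.39% higher and 4.46% lower (edgeR quasi-likelihood test, Benjamini-Hochberg adjustment over all genes). The contrast sets the mean of the 2 TSA groups against the mean of the 2 vehicle groups. It takes Tbr2-positive and Tbr2-negative libraries as independent, though libraries of the same number may share a preparation. In bulk samples a lower CPM can come from fewer cells of a type or from less RNA per cell, and these cannot be told apart.

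**Figure D1:**
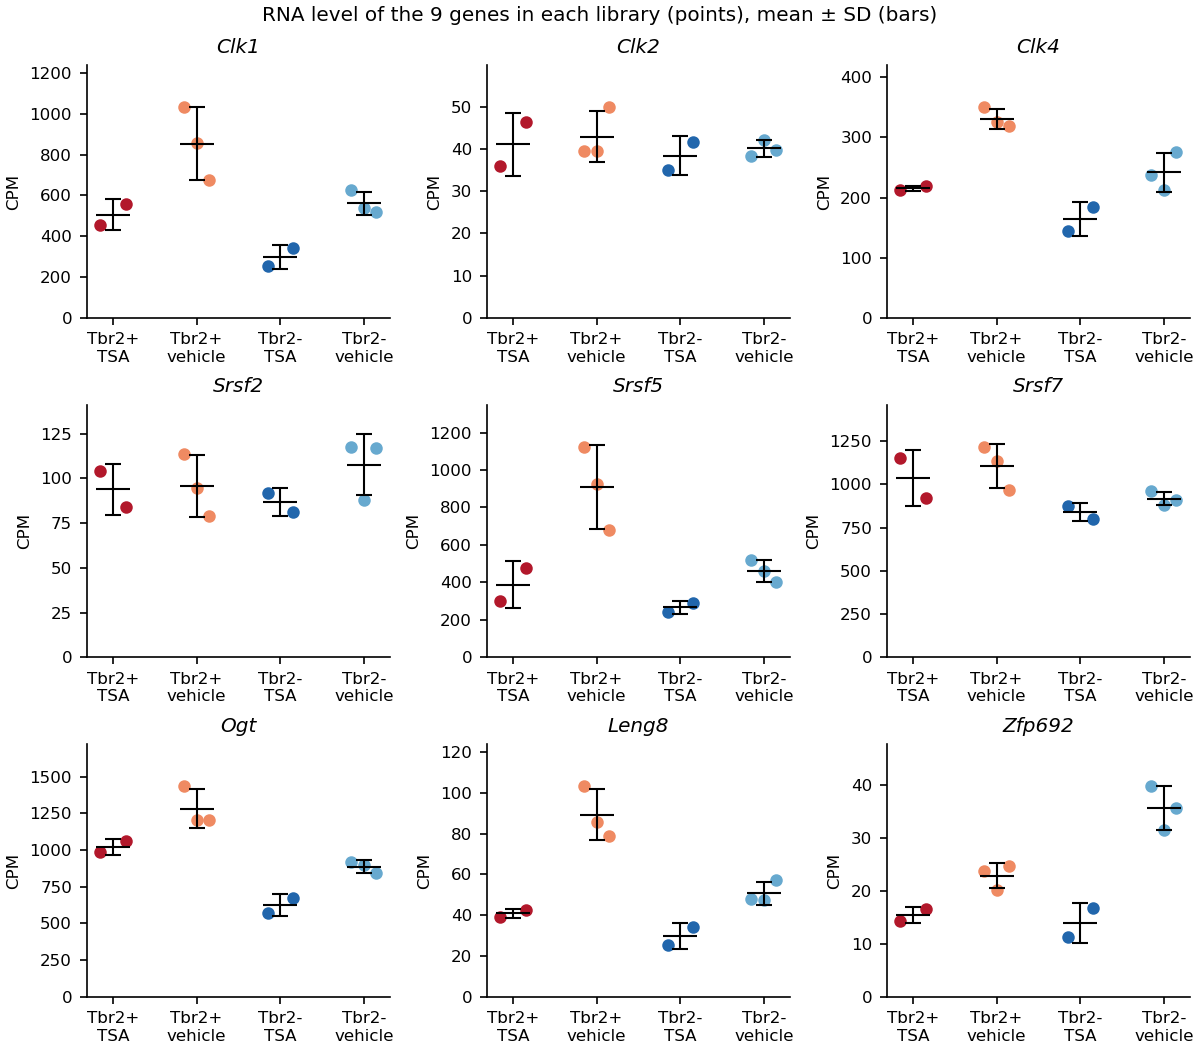
RNA level of the 9 genes in CPM (linear axis from 0) in the 4 groups; each point is a library and the bars give mean ± SD (n = 2 for TSA, n = 3 for vehicle). In Clk1, Clk4, Srsf5, Ogt, Leng8 and Zfp692 every TSA point lies below every vehicle point of the same population; in Clk2 and Srsf2 the ranges overlap.

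Among the kinases, Clk1 (ENSMUSG00000026034, chr1:58411988-58424088, GRCm38.p6) had 453 and 559 CPM in Tbr2-positive TSA nuclei, against 1031, 855 and 676 CPM in Tbr2-positive vehicle nuclei. In Tbr2-negative nuclei it had 255 and 341 CPM with TSA, against 626, 539 and 517 CPM with vehicle. The TSA and vehicle libraries did not overlap in either population, and within each treatment the Tbr2-positive libraries lay above the Tbr2-negative ones. The log2 fold change over both populations was -0.83 ± 0.15 (SE), 1.78-fold lower (adjusted p = 0.00718, edgeR).

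Clk4 (ENSMUSG00000020385, chr11:51263114-51281770), a close paralogue of Clk1, had 212 and 219 CPM in Tbr2-positive TSA nuclei, against 350.0, 325 and 318 CPM in Tbr2-positive vehicle nuclei. The Tbr2-negative values were 145 and 185 CPM with TSA, against 238, 212 and 275 CPM with vehicle. No TSA library reached a vehicle library of its population. The log2 fold change over both populations was -0.59 ± 0.12 (SE; adjusted p = 0.0105, edgeR). Reads shared by the paralogues could be split between Clk1 and Clk4, and Clk4 overlaps BC049762 on the other strand by 549 bases, which the unstranded library kit cannot separate.

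Clk2 (ENSMUSG00000068917, chr3:89164795-89177087), the third kinase, had 35.9 and 46.4 CPM in Tbr2-positive TSA nuclei, against 39.5, 39.5 and 49.9 CPM in Tbr2-positive vehicle nuclei. It had 35.1 and 41.8 CPM in Tbr2-negative TSA nuclei, against 38.3, 42.3 and 39.8 CPM in Tbr2-negative vehicle nuclei. All groups overlapped. The log2 fold change of -0.06 ± 0.14 did not pass (adjusted p = 0.811, edgeR), and its 95% interval ran from -0.36 to 0.23. The whole gene lies within the annotated read-through gene Gm45927, so counting could have divided its reads.

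Of the SR proteins, Srsf5 (ENSMUSG00000021134, chr12:80945495-80950507) showed the lowest fold change among the 7 tested genes. It had 299 and 477 CPM in Tbr2-positive TSA nuclei, against 1124, 925 and 680.2 CPM in Tbr2-positive vehicle nuclei. In Tbr2-negative nuclei the values were 242 and 292 CPM with TSA, against 520.4, 460.1 and 403 CPM with vehicle. The groups were apart in both populations, although the Tbr2-positive libraries spread widely. Over both populations Srsf5 was 2.01-fold lower with TSA (log2 fold change -1.01 ± 0.17; adjusted p = 0.00648, edgeR).

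Srsf2 (ENSMUSG00000034120, chr11:116849897-116853675), an SR protein that stays in the nucleus, had 104 and 83.7 CPM in Tbr2-positive TSA nuclei, against 114, 94.4 and 79.1 CPM in Tbr2-positive vehicle nuclei. With 92.0 and 81.0 CPM in Tbr2-negative TSA nuclei, against 118, 88.0 and 117 CPM in Tbr2-negative vehicle nuclei, the ranges overlapped in both populations. The log2 fold change over both was -0.17 ± 0.14 (95% interval -0.47 to 0.13; adjusted p = 0.455, edgeR). Srsf2 overlaps Mfsd11 on the other strand by 1465 bases of its 3779, so its counts may hold reads of that gene.

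Srsf7 (ENSMUSG00000024097, chr17:80200080-80207369), which also takes part in RNA export, had 1154 and 923 CPM in Tbr2-positive TSA nuclei, against 1217, 1135 and 966 CPM in Tbr2-positive vehicle nuclei. In Tbr2-negative nuclei 875 and 802 CPM with TSA stood against 961, 883 and 909.6 CPM with vehicle, just apart. The log2 fold change over both populations was -0.11 ± 0.11 (95% interval -0.36 to 0.14; adjusted p = 0.574, edgeR). The interval of Srsf7 holds falls of up to 0.36 on the log2 scale, so a small decrease was not detectable here.

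Ogt (ENSMUSG00000034160, chrX:101640011-101684351) encodes the enzyme that adds O-GlcNAc to nuclear and cytoplasmic proteins. It had 983 and 1061 CPM in Tbr2-positive TSA nuclei, against 1433, 1207 and 1203 CPM in Tbr2-positive vehicle nuclei. The Tbr2-negative values were 569.7 and 675 CPM with TSA, against 921, 899 and 842 CPM with vehicle. The groups did not overlap in either population, and the fall over both was 1.34-fold (log2 fold change -0.42 ± 0.11; adjusted p = 0.0300, edgeR). Oga, the gene of the enzyme that removes O-GlcNAc, had a log2 fold change of -0.15 ± 0.11 and did not pass (adjusted p = 0.373, edgeR).

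Leng8 (ENSMUSG00000035545, chr7:4137013-4148177), a gene of the leukocyte receptor cluster, had 39.3 and 42.5 CPM in Tbr2-positive TSA nuclei, against 103, 85.5 and 78.96 CPM in Tbr2-positive vehicle nuclei. It had 25.3 and 34.4 CPM in Tbr2-negative TSA nuclei, against 47.7, 47.3 and 57.0 CPM in Tbr2-negative vehicle nuclei. Zfp692 (ENSMUSG00000037243, chr11:58307057-58315145), which encodes a zinc finger protein, had 14.3 and 16.6 CPM in Tbr2-positive TSA nuclei, against 23.8, 20.2 and 24.7 CPM in Tbr2-positive vehicle nuclei. Both were selected for being lower with TSA, and no TSA library reached a vehicle library of its population. In Tbr2-negative nuclei Zfp692 had 11.3 and 16.7 CPM with TSA, against 39.7, 31.4 and 35.7 CPM with vehicle. The log2 fold changes over both populations were -0.94 ± 0.14 for Leng8 and -0.96 ± 0.17 for Zfp692. Leng8 lies 6 bases from Leng9 and 87 from D030047H15Rik, and Zfp692 overlaps Zfp672 by 32 bases, so reads near those ends could belong to either gene.

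**Figure D2:**
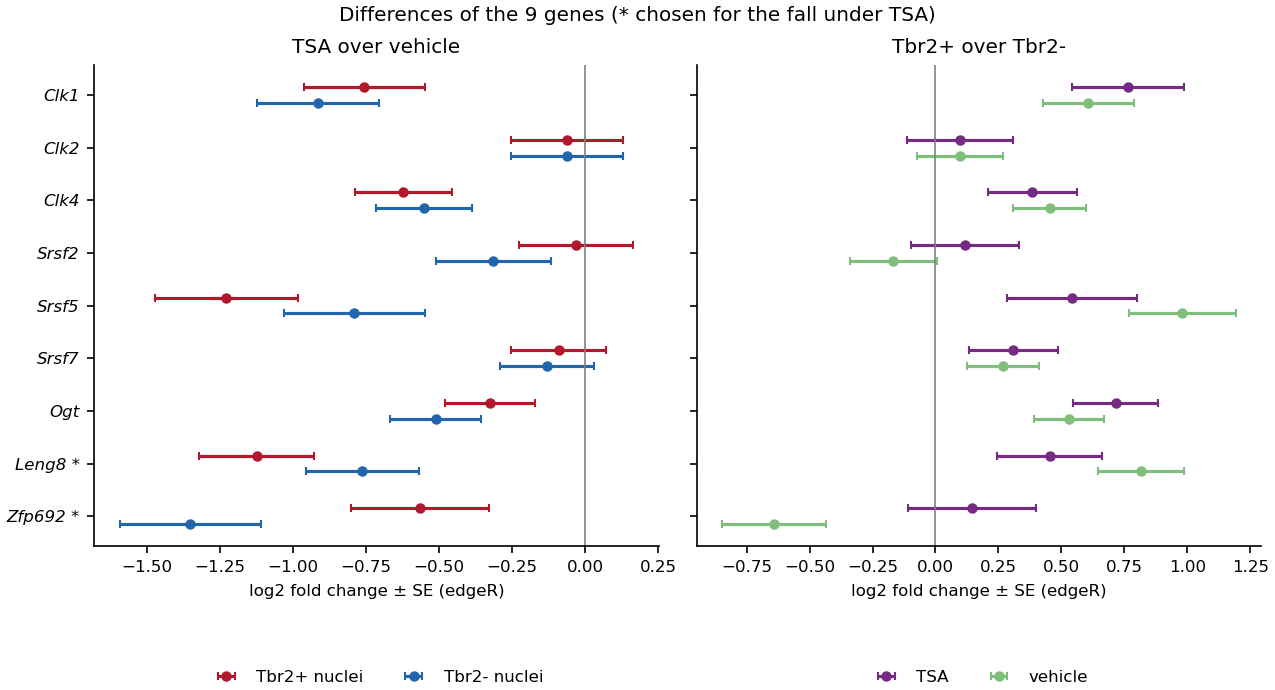
Log2 fold change ± SE from the edgeR fit for the 9 genes, TSA over vehicle in each population on the left and Tbr2-positive over Tbr2-negative in each treatment on the right; the asterisk marks the genes chosen for their fall under TSA. On the left Srsf5 lies at -1.23 in Tbr2-positive nuclei and at -0.79 in Tbr2-negative ones, while Clk2 lies at -0.06 in both; on the right Zfp692 lies at -0.64 in vehicle.

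Taken one population at a time, the same genes had lower values with TSA, and none of the 7 passed the test in either. In Tbr2-positive nuclei 0 of the 7 genes passed, as did 0.0% of all 20078 genes (edgeR), while 15.8% of all genes had an unadjusted p below 0.05. Srsf5 had a log2 fold change of -1.23 ± 0.25 there (adjusted p = 0.0948), Clk1 of -0.76 ± 0.21 (0.116), Clk4 of -0.62 ± 0.16 (0.110) and Ogt of -0.33 ± 0.15 (0.326; all edgeR). In Tbr2-negative nuclei 0 of the 7 passed, against 1.18% of all genes, with unadjusted p below 0.05 in 20.1% of all genes (edgeR). The values there were -0.91 ± 0.21 for Clk1 (adjusted p = 0.0541), -0.79 ± 0.24 for Srsf5 (0.0945), -0.55 ± 0.16 for Clk4 (0.0884), -0.51 ± 0.16 for Ogt (0.0933) and -0.31 ± 0.20 for Srsf2 (0.396; all edgeR). DESeq2 on the same counts called Clk1, Clk4 and Srsf5 in Tbr2-positive nuclei and these and Ogt in Tbr2-negative nuclei. Without the low-count filter edgeR called Clk1 and Srsf5 in each population.

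Clk1, Clk4, Srsf5 and Ogt, 4 of the 7 genes, had every TSA library below every vehicle library in both populations, which held for 6.82% of all genes. Within a single population such a fall without overlap was seen for 17.6% of all genes in Tbr2-positive nuclei, with the same 4 of the 7, and for 21.0% in Tbr2-negative nuclei, with these and Srsf7. The calls over both populations rested on Tbr2-negative TSA library 1: without it 0 of the 7 genes passed and the count over all genes was 245 in place of 2178 (edgeR). Adjusted p without that library was 0.0507 for Srsf5, 0.0544 for Clk1, 0.0809 for Clk4 and 0.178 for Ogt, with log2 fold changes of -0.93, -0.73, -0.49 and -0.35. The Ogt call also ended without Tbr2-positive vehicle library 1 (adjusted p = 0.0732), Tbr2-positive TSA library 1 (0.103), and Tbr2-negative vehicle libraries 1 (0.0682) and 3 (0.0558; all edgeR).

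The size of the TSA difference was also compared between the populations. None of the 7 genes passed the interaction test, and 0.0% of all genes passed it (edgeR). Unadjusted p lay below 0.05 in 5.49% of all genes (edgeR), and DESeq2 called 12 genes, none of the 7. The TSA effect in Tbr2-positive minus that in Tbr2-negative nuclei was -0.44 ± 0.33 for Srsf5 (95% interval -1.16 to 0.28) and 0.16 ± 0.29 for Clk1 (-0.46 to 0.78) on the log2 scale. For Clk4 it was -0.07 ± 0.23 (-0.56 to 0.43) and for Ogt 0.19 ± 0.22 (-0.28 to 0.65). These intervals leave room for differences as large as many of the effects themselves. Zfp692, chosen for its fall, had 0.79 ± 0.33, its log2 fold change being -0.57 for Tbr2-positive nuclei and -1.35 for Tbr2-negative ones.

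Between the populations in vehicle, 5 of the 9 genes were higher in Tbr2-positive than in Tbr2-negative nuclei and 1 was lower. The higher ones were Clk1, Clk4, Srsf5, Ogt and Leng8, and the lower one was Zfp692. Among all genes 9.96% were higher and 11.5% lower, 21.4% in all (adjusted p below 0.05, edgeR). The genes were chosen with earlier results of these data known, which limits the comparison with all genes. This contrast also shares its vehicle libraries with the TSA contrasts that chose Leng8 and Zfp692. Apart from Leng8 and Zfp692, the genes called were Clk1, Clk4, Srsf5 and Ogt, all of them higher.

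Srsf5 averaged 909 ± 222 CPM in Tbr2-positive and 461 ± 58.6 CPM in Tbr2-negative vehicle nuclei (SD, n = 3 each), 1.97-fold higher (log2 fold change 0.98 ± 0.21; adjusted p = 0.00516, edgeR). Leng8 averaged 89.2 ± 12.5 CPM in Tbr2-positive and 50.6 ± 5.51 CPM in Tbr2-negative vehicle nuclei (log2 fold change 0.82 ± 0.17; adjusted p = 0.00402, edgeR). These calls were made under each of the 17 alternatives run. Ogt averaged 1281 ± 132 CPM in Tbr2-positive and 887 ± 41.0 CPM in Tbr2-negative vehicle nuclei, 1.44-fold higher (adjusted p = 0.0146, edgeR). Its call ended only without Tbr2-negative vehicle library 3 (adjusted p = 0.0610, edgeR).

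Clk1 was 1.52-fold higher in Tbr2-positive than in Tbr2-negative vehicle nuclei (log2 fold change 0.61 ± 0.18; adjusted p = 0.0295, edgeR) and Clk4 1.37-fold (0.45 ± 0.15; adjusted p = 0.0402, edgeR), with every Tbr2-positive library above every Tbr2-negative one. The Clk1 call ended without Tbr2-positive vehicle libraries 1 (0.105) or 2 (0.0606) and without Tbr2-negative vehicle libraries 2 (0.0804) or 3 (0.0977). The Clk4 call was kept under 10 of 17 alternatives, with adjusted p up to 0.130. Zfp692 averaged 22.9 ± 2.38 CPM in Tbr2-positive and 35.6 ± 4.14 CPM in Tbr2-negative vehicle nuclei (SD, n = 3 each; log2 fold change -0.64 ± 0.21; adjusted p = 0.0423, edgeR), and its call was kept under 8 of 17 alternatives, with adjusted p up to 0.156. Clk2 (0.10 ± 0.17), Srsf2 (-0.17 ± 0.17) and Srsf7 (0.27 ± 0.14) did not pass (adjusted p = 0.751, 0.561 and 0.217, edgeR), and Srsf7 was higher in every Tbr2-positive library. Counted by overlap alone, 6 of the 9 genes lay above without overlap (Clk1, Clk4, Srsf5, Srsf7, Ogt and Leng8), as did 18.4% of all genes, and Zfp692 lay below, as did 21.3%.

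With TSA, Ogt and Clk1 were the genes of the 9 that passed between the populations, where 9.32% of all genes did, 4.19% higher and 5.13% lower (edgeR). Ogt averaged 1022 ± 55.2 CPM in Tbr2-positive and 622 ± 74.4 CPM in Tbr2-negative TSA nuclei, which is 0.72 ± 0.17 on the log2 scale (adjusted p = 0.0187, edgeR). Clk1 averaged 506 ± 75.6 CPM in Tbr2-positive and 298 ± 60.7 CPM in Tbr2-negative TSA nuclei (0.77 ± 0.22; adjusted p = 0.0482, edgeR). Clk4 (0.39 ± 0.18), Srsf5 (0.54 ± 0.26) and Leng8 (0.45 ± 0.21) did not pass with 2 libraries a group (adjusted p = 0.216, 0.233 and 0.215, edgeR). Zfp692 averaged 15.5 ± 1.58 CPM in Tbr2-positive and 14.0 ± 3.82 CPM in Tbr2-negative TSA nuclei, and these overlapped (adjusted p = 0.805, edgeR). Without Tbr2-positive TSA library 2 or Tbr2-negative TSA library 1 none of the 9 genes passed, and the Clk1 call was kept under 8 of 17 alternatives. The same 6 genes as in vehicle had both Tbr2-positive TSA libraries above both Tbr2-negative ones, as had 23.6% of all genes.

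Other genes of RNA processing are set beside the 9 by lists chosen with earlier results of these data known. With TSA over both populations 6.39% of all genes rose and 4.46% fell (adjusted p below 0.05, edgeR). Of 10 other SR proteins none passed with TSA over both populations, and their median log2 fold change was 0.01, where that of all genes was -0.08. Tra2a, a splicing activator, had the smallest p at -0.33 ± 0.12. Of 7 other SR protein kinases, Dyrk1a rose (0.50 ± 0.13) and none fell. Of 20 hnRNP genes, whose proteins often oppose SR proteins, Hnrnpa0 (0.92 ± 0.15), Hnrnpc (0.49 ± 0.12) and Hnrnpd (0.49 ± 0.13) rose and none fell.

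Of 20 core spliceosome genes, 1 fell, Snrnp70 of the U1 particle (-0.83 ± 0.17), a count near the 4.46% of all genes that fell. The list of the nuclear exosome, which destroys nuclear RNA, had 15 of 16 genes tested, and Pabpn1 (-0.67 ± 0.15) and Zfc3h1 (-0.57 ± 0.13) fell, both being adaptors that hand polyadenylated RNA to it. Of 10 genes of nonsense-mediated decay Smg5 fell (-0.54 ± 0.15). The medians of these lists were 0.09, 0.08 and -0.14. The Hnrnpa0 call was kept under all 15 alternatives run. Those of Dyrk1a, Hnrnpc, Hnrnpd, Snrnp70, Zfc3h1, Pabpn1 and Smg5 ended without Tbr2-negative TSA library 1 (adjusted p = 0.0831 to 0.197, edgeR) and without Tbr2-positive TSA library 1 (0.0607 to 0.104).

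**Figure D3:**
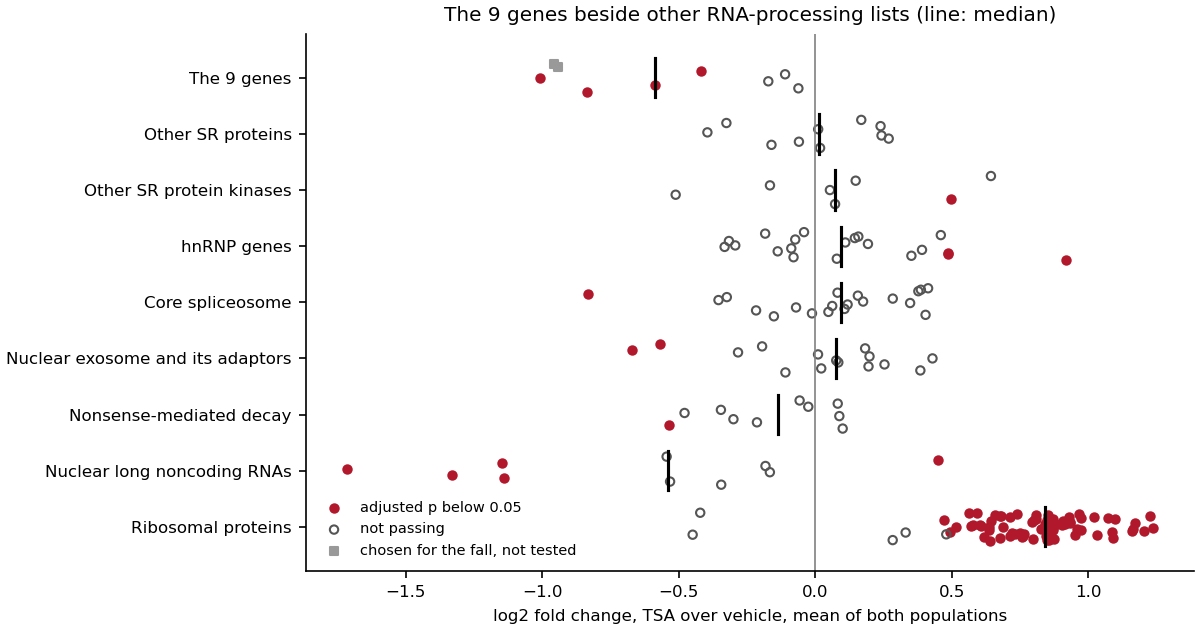
Log2 fold change of TSA over vehicle, mean of both populations, for each gene of the lists (1 point per gene; filled, adjusted p below 0.05 in edgeR; open, not passing; grey squares, the genes chosen for their fall; black line, median). The 10 other SR proteins have their median at 0.01, the 10 nuclear long noncoding RNAs at -0.54 and the 79 ribosomal protein genes at 0.84.

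The lists were also read between the populations in vehicle, where 9.96% of all genes were higher and 11.5% lower (edgeR). Of 20 hnRNP genes 8 were higher, among them Ptbp1, a repressor of neuronal exons (1.32 ± 0.21), Hnrnpm (1.11 ± 0.23) and Hnrnph2 (0.87 ± 0.16), and none was lower. Of 20 core spliceosome genes 6 were higher, including Sf3a3 (0.68 ± 0.14), U2af2 (0.90 ± 0.25) and Sf3b1 (0.52 ± 0.15). Among other SR proteins Srsf3 (0.48 ± 0.14) and Srsf4 (0.91 ± 0.30) were higher and Srsf12 (-1.28 ± 0.21) was lower. Dyrk1b was the 1 other kinase that was higher (0.79 ± 0.24). Exosome genes Mtrex (0.55 ± 0.15) and Exosc3 (0.55 ± 0.17) and the decay factor gene Upf3b (0.59 ± 0.15) were higher too. These were 2 of 15 exosome and 1 of 10 decay genes, not far from the share of all genes. The medians were 0.44 for hnRNP genes, 0.22 for the spliceosome and 0.22 for other SR proteins, against -0.05 for all genes. Most genes of the shorter lists did not pass, 7 of 10 other SR proteins, 6 of 7 kinases, 13 of 15 exosome genes and 9 of 10 decay genes among them. Of 10 nuclear long noncoding RNAs 5 were lower and 1 was higher, with a median of -0.77, and Mirg (-3.53 ± 0.42), Rian (-2.68 ± 0.24) and Meg3 (-2.34 ± 0.37) among the lower ones. The calls of Ptbp1, Hnrnpm, Hnrnph2, Sf3a3, Srsf12 and Upf3b were kept under each of 17 alternatives, while those of U2af2, Sf3b1, Srsf3, Srsf4, Dyrk1b, Mtrex and Exosc3 ended without 1 or another vehicle library (adjusted p = 0.0525 to 0.156, edgeR).

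RNAs of ribosomal proteins and some nuclear long noncoding RNAs also differed between treatments. Among all genes 6.39% rose and 4.46% fell over both populations (edgeR). Of 79 ribosomal protein genes 74 rose over both populations, and of 10 nuclear long noncoding RNAs 4 fell, 1 rose and 5 did not pass, with Miat (-1.33 ± 0.27), Snhg11 (-1.15 ± 0.27) and Meg3 (-1.14 ± 0.29) among those that fell; these 3 calls ended without Tbr2-negative TSA library 1 (adjusted p = 0.0661 to 0.121, edgeR). Ribosomal protein genes summed to 14877 to 17084 CPM in Tbr2-positive TSA nuclei, against 7332 to 10840.0 CPM in Tbr2-positive vehicle nuclei. They summed to 15517 to 19902 CPM in Tbr2-negative TSA nuclei, against 8583 to 12404 CPM in Tbr2-negative vehicle nuclei. No TSA library overlapped a vehicle library in that sum.

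The 9 genes summed to 3294 to 3428 CPM in Tbr2-positive TSA nuclei, against 4077 to 5436 CPM in Tbr2-positive vehicle nuclei. In Tbr2-negative nuclei the sum was 2249 to 2468 CPM with TSA and 3197 to 3510 CPM with vehicle. Within groups the library with the lowest ribosomal sum had the highest sum of the 9 genes: vehicle library 1 in both populations, and TSA library 2 in both. Nuclear long noncoding RNAs summed to 6926 to 12726 CPM in Tbr2-positive TSA nuclei, against 11965 to 14952 CPM in Tbr2-positive vehicle nuclei, and to 6782 to 8683 CPM in Tbr2-negative TSA nuclei, against 10549 to 15038 CPM in Tbr2-negative vehicle nuclei. Mitochondrial transcripts took 0.306 to 0.445% of the counts of TSA libraries and 0.0979 to 0.306% of those of vehicle libraries. The part of these shifts, and of the cell type markers above, in the lower values of the 9 genes was not tested.

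**Figure D4:**
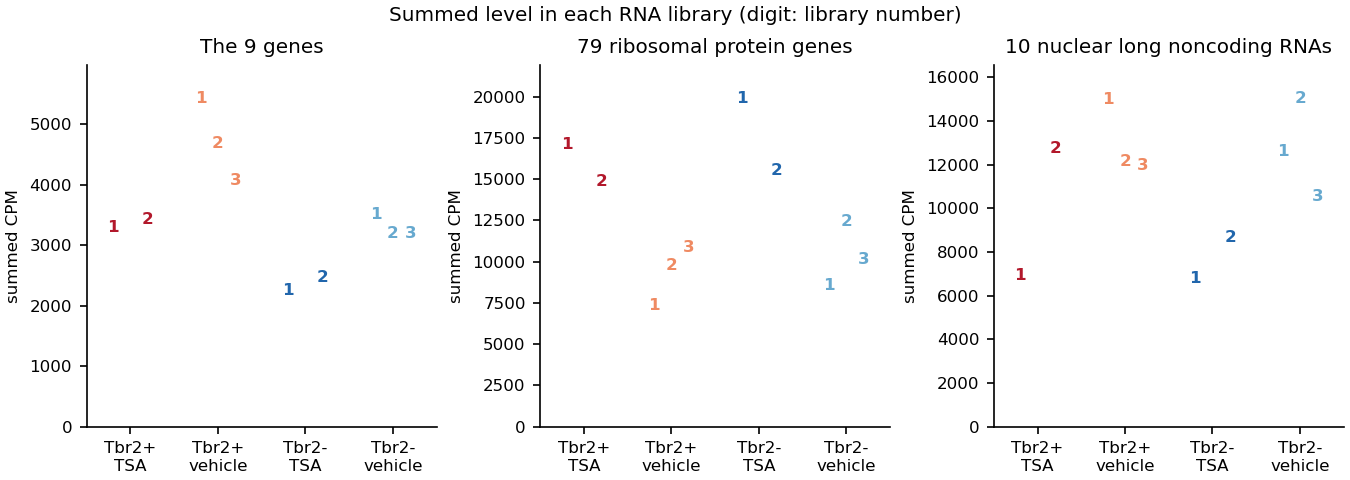
Summed CPM in each RNA library of the 9 genes, of 79 ribosomal protein genes and of 10 nuclear long noncoding RNAs (linear axes from 0; each digit is a library of that number). The lowest ribosomal sum of a TSA library is 14877 CPM and the highest of a vehicle library 12404 CPM; the sum of the 9 genes is lower in TSA than in vehicle libraries of the same population.

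The 9 genes did not vary alike across the 10 RNA libraries. The distance between a gene's log2 CPM, centred over the libraries, and the mean of the 9 was measured as a root mean square. It was 0.10 for Clk4, 0.16 for Ogt, 0.23 for Clk1, 0.26 for Srsf7, 0.28 for Leng8, 0.32 for Clk2, 0.33 for Srsf2, 0.38 for Srsf5 and 0.44 for Zfp692. Zfp692 was thus farthest from the common pattern and Clk4 nearest, each gene also entering the mean. Among 13958 ranked genes outside the 9, those nearest to the mean were Supt20 (0.0717), Cpsf6 (0.0746), Cstf3 (0.0887), Gm37494 (0.0895) and Rbm4b (0.0915). Cpsf6, for example, averaged 593 CPM in Tbr2-positive TSA, 795 in Tbr2-positive vehicle, 451 in Tbr2-negative TSA and 609.9 in Tbr2-negative vehicle nuclei. Such likeness across 10 libraries that share treatment, sort and depth is a description.

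At the chromatin level the 9 genes kept their H3K9ac peaks. Each had a peak within 1 kb of a gene end in all 15 libraries, the share of all genes being 71.6% as given above. Taken by group, a peak in every library was found for 72.2% of genes in Tbr2-positive TSA, 77.3% in Tbr2-positive vehicle, 77.0% in Tbr2-negative TSA and 78.0% in Tbr2-negative vehicle nuclei. None gained or lost a peak between TSA and vehicle in either population, where among all genes 0.828% lost one in Tbr2-positive nuclei and 0.0118% did so in Tbr2-negative ones. A peak was gained by 0.00592% of all genes in Tbr2-positive nuclei, so losses outnumbered gains there, and by 0.0177% in Tbr2-negative ones. Between the populations no gene of the 9 gained or lost a peak under vehicle, where 0.118% of all genes gained and 0.432% lost one, nor under TSA, where 0.0118% gained and 1.23% lost one. The authors called the peaks for each library with 1 input per group, 31823 to 40053 peaks per library in Tbr2-positive TSA nuclei and 61487 to 82164 in Tbr2-positive vehicle nuclei, 47835 to 78929 in Tbr2-negative TSA nuclei and 56403 to 78773 in Tbr2-negative vehicle nuclei.

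**Figure D5:**
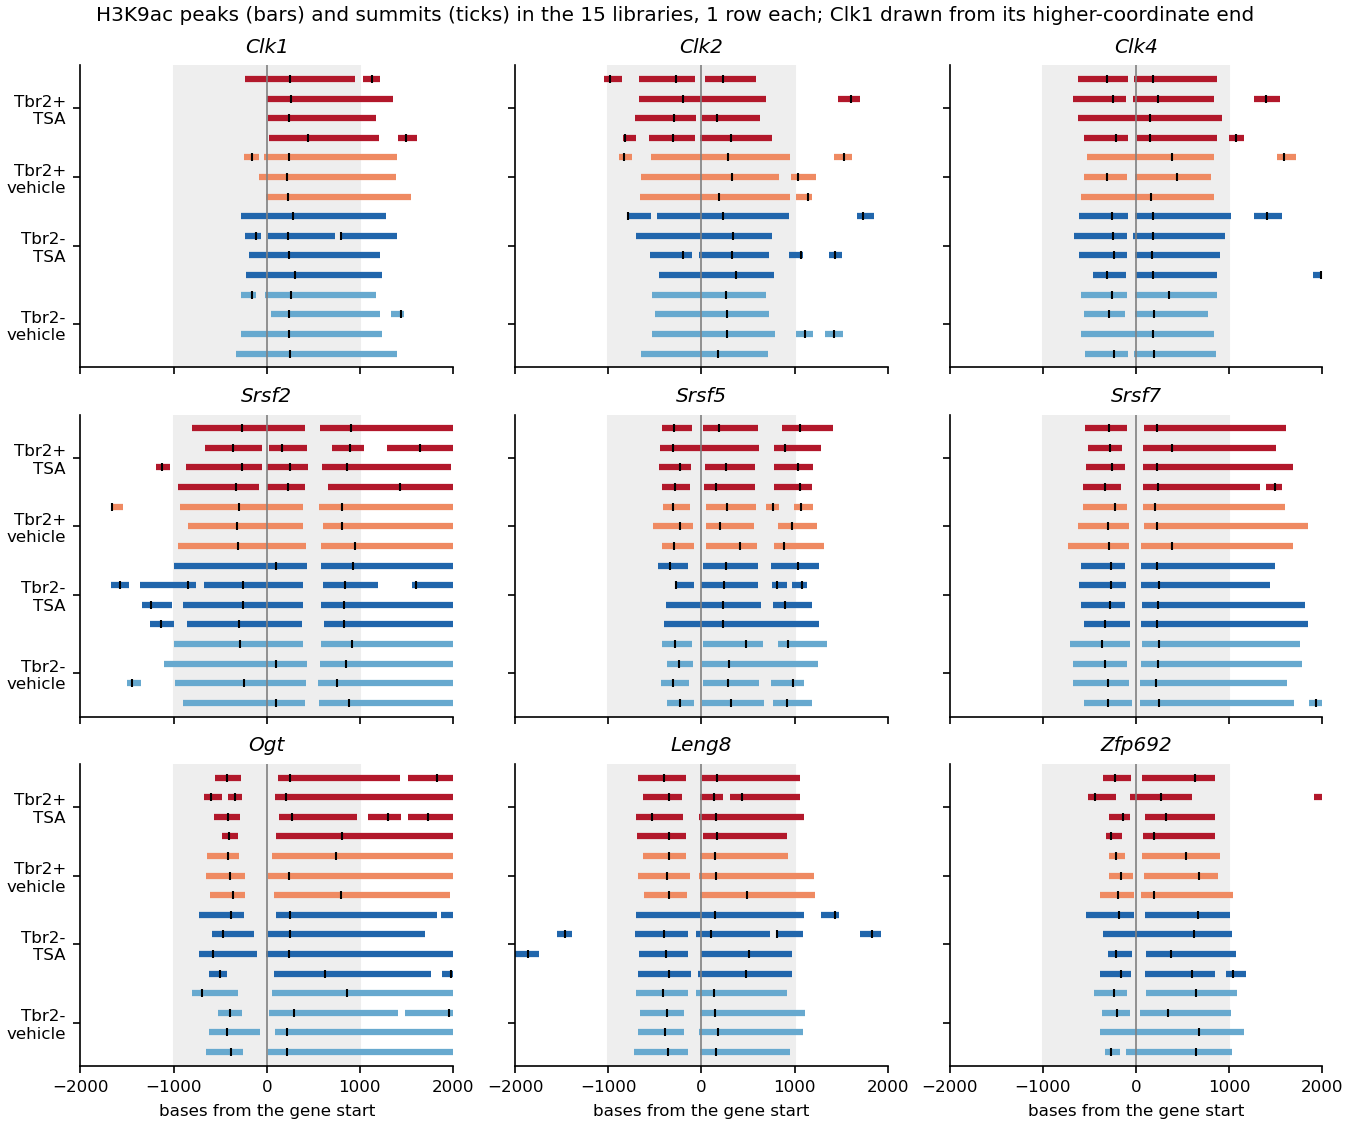
H3K9ac peaks (bars) and their summits (ticks) within 2 kb of the start of each gene, in bases on the gene's strand, with 1 row for each of the 15 libraries grouped by population and treatment; grey marks the window of 1 kb on each side. Clk1 is drawn from its higher-coordinate end, as its strand is not given in the tables used. All 9 genes show a peak in every row.

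Bases under a peak in the 2 kb around the start show how much of that window was called as peak. The peak lists came from separate calls and share no scale, so these values do not measure how far the mark spread. Ogt had 1067 to 1258 bases covered in Tbr2-positive TSA nuclei, with a median of 1138.0, against 1286 to 1409 in Tbr2-positive vehicle nuclei, with a median of 1295. Clk2 had 1277 to 1409 bases in Tbr2-positive TSA nuclei, against 1514 to 1632 in Tbr2-positive vehicle nuclei. Srsf7 had 1290.0 to 1369 bases in Tbr2-positive TSA nuclei, against 1405 to 1594 in Tbr2-positive vehicle nuclei. These 3 of the 9 genes had lower coverage with TSA without overlap, and so had 26.4% of 12577 genes; over all of these the median per library was 1005 to 1047 bases with TSA and 1152 to 1163 with vehicle. Peak number moved with it, and input depth differed too, with 20118388 tags for Tbr2-positive TSA and 30061311 for Tbr2-positive vehicle nuclei. The part of either was not tested.

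Of the 4 genes whose RNA fell with TSA, Clk1, Clk4 and Srsf5 had overlapping coverage in Tbr2-positive nuclei and Ogt did not. Clk1 had 977 to 1187 bases in Tbr2-positive TSA nuclei, against 1006 to 1194 in Tbr2-positive vehicle nuclei. Clk4 had 1332 to 1546 bases in Tbr2-positive TSA nuclei, against 1273 to 1426 in Tbr2-positive vehicle nuclei. Srsf5 had 1050.0 to 1284 bases in Tbr2-positive TSA nuclei, against 966 to 1122 in Tbr2-positive vehicle nuclei. In Tbr2-negative nuclei Srsf7 alone of the 9 had less coverage without overlap, 1412 to 1450.0 bases with TSA against 1472 to 1578 with vehicle, as had 3.01% of all genes. Between the populations in vehicle, Srsf5 had 966 to 1122 bases in Tbr2-positive nuclei and 1150.0 to 1274 in Tbr2-negative ones, where 15.3% of all genes were lower without overlap. Clk2 had 1514 to 1632 bases in Tbr2-positive and 1217 to 1366 in Tbr2-negative vehicle nuclei, where 4.13% of all genes were higher. With TSA, Srsf7 and Zfp692 were the 2 of the 9 with less coverage in Tbr2-positive nuclei without overlap, Zfp692 having 945 to 1081 bases in Tbr2-positive and 1133 to 1415 in Tbr2-negative TSA nuclei, and 24.3% of all genes did so.

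Peaks at the other end of the gene were found in every library for Clk2, with 601 to 666 bases covered, and for Leng8, with 178 to 761. Clk2 ends 304 bases from Scamp3 and Leng8 6 bases from Leng9, so peaks there may belong to the neighbour. Srsf7 lies 135 bases from Gemin6, Srsf2 157 from Mettl23, Srsf5 96 from Gm20337 and Leng8 87 from D030047H15Rik. Clk4 overlaps BC049762, Srsf2 overlaps Mfsd11 and Zfp692 overlaps Zfp672. Bases covered around the start or the other end of these genes may therefore also belong to a neighbour. The strongest start peak of Clk1 ranked at or above the 95.7th percentile of the authors' -log10 q in its own library, and that of Clk4 likewise. Zfp692 ranked lower, between the 44.9th and the 88.3rd. Ranks from lists of different lengths cannot measure a change and are given to place each gene within its library. Of the promoters printed above, that of Ogt was overlapped by a peak in 11 of the 15 libraries and its second promoter in all 15, and those of Clk4, Srsf5, Leng8 and Zfp692 in all 15.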

How the data were processed

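RNA was measured as counts per gene in 10 libraries. The deposited count files hold whole numbers against Ensembl identifiers made by the authors, with build mm10 and SAMtools named in the submitters' processing notes; no aligner, counter or annotation is given in the sources used here, and per the labels the kit was TruSeq RNA v2, which keeps no strand. Of 48709 identifiers 48349 had a symbol. Counts were tested with edgeR 4.0.16 (R 4.3.3): filterByExpr (20078 genes), TMM, a robust quasi-likelihood model with a mean for each group over all 10 libraries, Benjamini-Hochberg adjustment at 0.05 over all genes. SE is the log2 fold change over the square root of F, and CPM are counts scaled to the library sizes after TMM. The common biological coefficient of variation was 0.374.

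H3K9ac peaks were called by the authors per library with MACS 2.1.0.20140616 at a q cutoff of 0.1, per the file headers, which give 15173175 to 30267202 ChIP tags per library. The deposited lists give a pileup signal, a fold over background and -log10 p and q; positions and the -log10 q rank within a library were used. A peak counted if it overlapped by 1 base a window of 1 kb on each side of a gene end (RefSeq, GRCm38.p6). Input libraries were not analysed here.

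The genes and lists were chosen with earlier results of these data known. Named genes are the 9, Eomes, Oga, up to 3 passing genes with the smallest adjusted p of each list (or the smallest p where none passes), and the 5 genes nearest in pattern with a mean of at least 2 CPM. Alternatives were RLE and upper-quartile scaling, no filter, DESeq2 1.42.0, fits of 2 groups only, a replicate block, each library left out, and other windows and peak thresholds. The RNA code was tested on simulated data. The NRF1 and YY1 motifs were first searched in longer forms, absent from the printed promoters, and the shorter cores reported were chosen after that; the NRF1 matches of Clk4 and Ogt rest on this choice.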

Additional observations from a re-analysis of the deposited data

Results flagged for a closer look

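In 27 groups of 4 libraries tested for a library apart from the others in bases under an H3K9ac peak around a gene start, 3 were found, and chance gives about 5%. In Tbr2-positive TSA nuclei Clk1 had 1187 bases in library 1, where the lowest library had 977 and the median was 991. In the same group and library Zfp692 had 1081 bases, where the lowest had 945. Srsf2 had 1331 bases in library 2 of that group, where the highest had 1667.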

How the results depend on the processing

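Of the 7 comparisons, the interaction (0 genes) and the presence of H3K9ac peaks (9 genes, 8 with a window of 100 bases) kept their counts within the limits used. For TSA in Tbr2-positive nuclei the count of tested genes was 0 and became 2 without the low-count filter and 3 with DESeq2. In Tbr2-negative nuclei it was 0 and became 2 without the filter, 4 with DESeq2 and 2 with only the 2 groups in the fit (Clk1 and Srsf5). Between populations with TSA it was 2 and became 1 with upper-quartile scaling and 1 with only the 2 groups in the fit. Leaving out 1 library each gave 3 to 6 genes between populations in vehicle, 0 to 2 with TSA, 0 to 1 for TSA in Tbr2-negative nuclei (Clk1), 0 in Tbr2-positive nuclei and 0 to 4 over both. Over all genes DESeq2 called 996 (edgeR 0), 1983 (236), 2974 (1871) and 3494 (2178) for TSA in Tbr2-positive, TSA in Tbr2-negative, populations with TSA, and TSA over both. Without the filter edgeR called 364 and 944 genes for TSA in Tbr2-positive and Tbr2-negative nuclei, and in Tbr2-negative nuclei upper-quartile scaling called 0 (median of all genes -0.14) and the fit of 2 groups 401. Leaving out 1 library each gave 0 to 39 genes for TSA in Tbr2-positive nuclei, 0 to 677 in Tbr2-negative nuclei, 245 to 2361 over both and 683 to 1953 between populations with TSA.

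Leaving out libraries turned the sign of values near 0. The ranges of the log2 fold change were for Clk2 -0.0137 to 0.18 between populations in vehicle, -0.10 to 0.29 with TSA, -0.26 to 0.11 for TSA in Tbr2-positive nuclei, -0.19 to 0.0674 in Tbr2-negative nuclei and -0.16 to 0.0219 over both. For Srsf2 they were -0.0322 to 0.27 between populations with TSA and -0.20 to 0.12 for TSA in Tbr2-positive nuclei, for Srsf7 there -0.27 to 0.062, and for Zfp692 -0.0672 to 0.48 between populations with TSA. The cause of these changes was not tested.

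Same-numbered Tbr2-positive and Tbr2-negative libraries correlated in their deviations by 0.0994, 0.0806 and 0.0985 in vehicle and 0.117 with TSA. Differently numbered ones correlated by -0.0779 to -0.0148 in vehicle and -0.117 with TSA, and each vehicle library correlated best with its own number. Deviations were taken from the group mean, so those of 2 TSA libraries mirror each other and -0.117 follows from 0.117. In vehicle the deviations of a group sum to 0, so positive values at the same number push the others below 0. The negative values therefore add no separate information on pairing. Nothing states whether same-numbered libraries came from the same preparation, and the main fits did not take them as pairs. If so, the contrast over both populations counts each preparation more than once. Its p-values may then be too small. A replicate block on the number gave 4 genes between populations in vehicle, 2 with TSA, 4 for TSA over both, and 0 in each population and for the interaction; over all genes it called 13 and 14 for TSA in Tbr2-positive and Tbr2-negative nuclei. A replicate block within treatment gave 6 genes in vehicle, 3 with TSA and 0 for the interaction. Over all genes it called 4823 in vehicle, against 4303 in the main fit, and 2326 with TSA, against 1871. With 2 TSA libraries a group, a lone remaining library is assumed to vary like the others.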
